A study of Mus musculus with 9 samples.

Results

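Heat shock chaperones were examined in the lungs of allergic mice exposed to fine particulate matter. They are 10 genes chosen by name, Hspa1a, Hspa1b, Hsph1, Dnajb1, Hspa8, Hsp90aa1, Hspb1, Hspd1, Hspe1 and Hspa5, among the 21884 genes of an mRNA-seq table of 9 lung libraries. All 10 were found, 8 by the symbol in the table and 2 (Hsph1 and Hspb1) by their Ensembl identifier. All 10 reached the level needed for testing, an FPKM of at least 0.5 in at least 3 libraries. FPKM are fragments scaled by a length per gene and by library size. BALB/c males, 6 weeks old on arrival and given 1 week to settle, formed 3 groups of 3 libraries. OVA mice were injected into the peritoneum with 50 µg ovalbumin (OVA) and 1 mg aluminium hydroxide on days 0, 7 and 14, and 400 µg ovalbumin was put into the nose on each of days 21 to 27. OVA+PM2.5 mice had the same ovalbumin course and, in addition, daily nasal drops of a suspension of particles (PM2.5), from 7 days before the first injection until the day before lungs were taken. Naive mice had saline in the same volumes by the same routes. Lungs of all 3 groups were taken on day 28. The labels number the libraries within a group without saying whether each is a single mouse, so the p-values reflect only the spread among these 9 libraries, which may be technical.

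Chaperones bind proteins that are unfolded or newly made and help them to fold. Heat shock protein 70 (HSP70) proteins such as those of Hspa1a, Hspa1b and Hspa8 bind and release clients in a cycle driven by ATP, with J-domain proteins such as Dnajb1 delivering the client and exchange factors such as Hsph1 releasing the nucleotide. Hsp90aa1 encodes an inducible cytosolic HSP90, Hspb1 a small heat shock protein that holds unfolding proteins and is abundant in muscle, and Hspd1 and Hspe1 the chamber and the lid of the mitochondrial chaperonin. Hspa5 encodes the HSP70 of the endoplasmic reticulum (ER), which secretory cells such as plasma cells and alveolar type 2 cells use heavily. Under heat or protein stress the transcription factor HSF1 binds heat shock elements in promoters of the cytosolic and mitochondrial genes, whereas Hspa5 answers to stress inside the ER through elements of another sequence.

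Promoter sequences are shown because the elements known for the heat shock and the ER stress response can be told apart by their letters. They are RefSeq promoters on build GRCm38.p6, which is not the GRCm39 build of the study's mapping, and each runs from 250 bases before to 50 bases after a start site. A promoter entry was matched for 8 of the 10 genes, in 11 windows, and Hspa8 and Hsp90aa1 are named only. A heat shock element was taken as GAANNTTCNNGAA or, on the other strand, TTCNNGAANNTTC, with N for any base and overlapping matches merged. It was present in windows of 3 members, Hspd1, Hspe1 and Hsph1, against 0.603% of 32851 promoters (0.662% of 27025 genes). The ER stress element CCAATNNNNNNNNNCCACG, searched on both strands, was present in the Hspa5 window and in 0.119% of promoters (0.137% of genes). The 4 sequences below run 5′ to 3′ on the strand of the gene, with the matched element in capitals.
Hspd1: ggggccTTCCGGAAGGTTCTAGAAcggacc
Hspe1: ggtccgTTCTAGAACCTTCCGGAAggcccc
Hsph1: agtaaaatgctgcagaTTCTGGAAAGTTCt
Hspa5: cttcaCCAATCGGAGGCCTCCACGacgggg
The Hspd1 and Hspe1 sequences are the same stretch, chr1:55088053-55088082, read on the minus and on the plus strand, since these genes lie head to head. Their element of 18 bases holds 2 overlapping matches and lies at positions −144 to −127 of the Hspd1 start and −89 to −72 of the Hspe1 start. The Hsph1 stretch is chr5:149636287-149636316 on the minus strand, and its element lies after the start, at positions 36 to 48 of one annotated start and 15 to 27 of another. The Hspa5 stretch is chr2:34772020-34772049 on the plus strand, with the element at −65 to −47. In the windows of Hspa1a, Hspa1b, Dnajb1, Hspb1 and Hspa5 these exact heat shock element letters were not found, which says nothing about the factor. A match is a description of the letters and not evidence of binding.

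The libraries held 12142765 to 15748051 fragments each, as recovered from the FPKM steps up to a common factor per gene. They differed in tissue content as well as in group, as judged by summed FPKM of marker genes. Skeletal muscle markers summed to 14176 in OVA+PM2.5 replicate 1, where 8 of 9 exceeded every Naive and OVA library and Tnnc2 was at 0, against 0.309 to 5.35 in the Naive and OVA libraries. Heart markers summed to 5154 in OVA+PM2.5 replicate 2 (8 of 10 above every Naive and OVA library, Myl2 at 0), against 42.6 to 307.9 in Naive and OVA. Brown fat markers summed to 2881 in OVA+PM2.5 replicate 3 (7 of 7 above every Naive and OVA library, none at 0), against 5.09 to 42.3 in Naive and OVA. They were also raised in OVA+PM2.5 replicate 1 (139.5, 7 of 7 above every Naive and OVA library) and replicate 2 (225.8, 3 of 7). Alveolar type 2 markers, the check on lung tissue, summed to 147 and 691.6 in OVA+PM2.5 replicates 1 and 3 and to between 4558 and 23474 in the 7 other libraries, and 7 of 7 were below every Naive and OVA library in both of those replicates. In OVA replicate 3 neutrophil markers (2331, 6 of 6 at their highest) and plasma cell markers (1710, 4 of 6 at their highest) peaked, and in Naive replicate 1 thymocyte markers did (290.6, 6 of 6 at their highest). Erythrocyte markers summed to 5503, 4482 and 14637 in OVA+PM2.5 replicates 1, 2 and 3, with 5 of 5 at their highest in replicate 3, against 318.6 to 2481 in Naive and OVA. In bulk tissue, fewer cells of a type and less RNA per cell cannot be told apart.

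Levels spanned more than an order of magnitude within a lung (mean FPKM per library of the group, n = 3). In Naive lungs Hspa8 was highest at 73.2 ± 20.6 (SD), followed by Hspa5 (51.3 ± 9.35), Hsp90aa1 (50.2 ± 1.51), Hspd1 (45.2 ± 2.18) and Hspb1 (44.9 ± 9.16). Hspe1 (27.3 ± 3.80) and Dnajb1 (10.7 ± 0.963) came next, and Hspa1b (5.66 ± 3.22), Hsph1 (2.56 ± 0.352) and Hspa1a (2.36 ± 1.69) were lowest. Neighbours in that order overlapped across libraries for Hspa8 and Hspa5, Hspa5 and Hsp90aa1, Hspd1 and Hspb1, and Hsph1 and Hspa1a. In OVA lungs Hspa5 (64.5 ± 25.6) and Hsp90aa1 (61.8 ± 13.1) led, and in OVA+PM2.5 lungs Hspd1 (71.2 ± 47.3) and Hspb1 (66.2 ± 28.9) did, but in both groups each of the first 3 overlapped the next. In every library the lowest FPKM among Hspa8, Hspa5, Hsp90aa1, Hspd1, Hspb1 and Hspe1 lay above those of Hspa1a, Hspa1b, Hsph1 and Dnajb1. The order between genes depends on the length used for each gene, which is not given in the sources used here. In Naive replicate 1, Hsph1 had 735 recovered fragments at 2.22 FPKM and Hspa1b 158 at 3.65 FPKM. The order is thus one of FPKM and may not be one of transcript number.

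**Figure D1:**
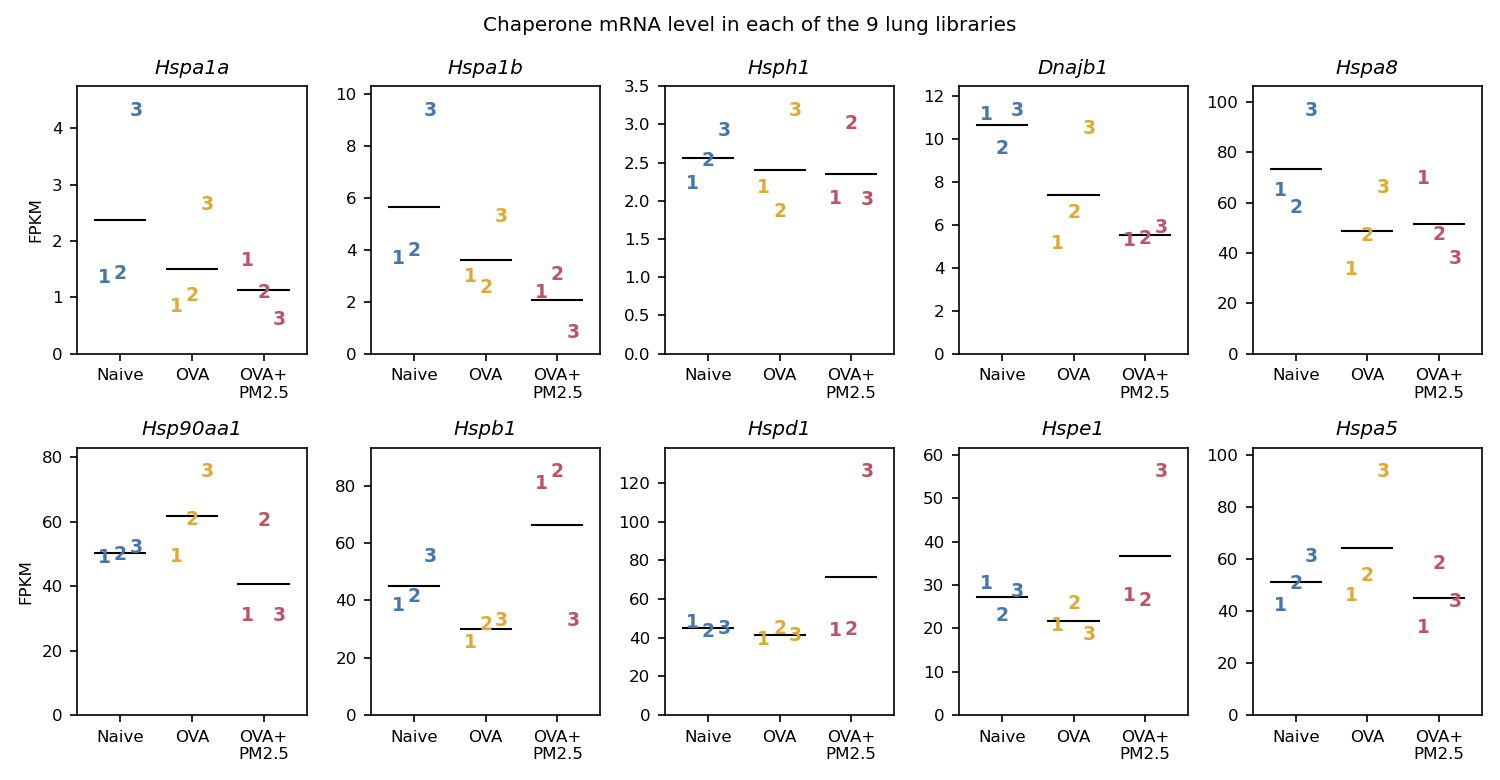
Chaperone level (y axis, FPKM, starting at 0 in each panel) in each library; numerals are the replicate and black lines the group means of 3. Hspd1 and Hspe1 are high in OVA+PM2.5 replicate 3, Hspb1 in OVA+PM2.5 replicates 1 and 2, Hspa5 and Hsp90aa1 in OVA replicate 3, and Hspa1a, Hspa1b and Hspa8 in Naive replicate 3.

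No chaperone passed the test in any of the 3 comparisons. With limma on log2(FPKM + 0.5) in all 9 libraries and p-values adjusted over 12982 genes, 0 of 10 were called at an adjusted p under 0.05 in OVA against Naive, where 0.0154% of all genes were called. The count was also 0 of 10 in OVA+PM2.5 against OVA (0.216% of all genes called) and in OVA+PM2.5 against Naive (7.12% called). Fits of only the 2 groups compared called 0 of 10 in each comparison as well, with 6.89% of all genes called in OVA against Naive and 0% in both others. The 9-library fit shares 1 variance per gene across groups, so a gene has the same standard error (SE) in all 3 comparisons. Spread was not equal: weights estimated per group were 2.15 in Naive, 1.34 in OVA and 0.347 in OVA+PM2.5, lower for wider spread. SEs and intervals of that fit can thus be too wide for OVA against Naive and too narrow for comparisons with OVA+PM2.5. At an unadjusted p under 0.05, 0, 1 and 2 members were counted in the 3 comparisons by the 9-library fit (11.35%, 26.95% and 34.57% of all genes) and 1, 1 and 2 by the 2-group fits (26.01%, 18.43% and 27.68%). The median log2 fold change of the 10 was −0.40 after OVA, against −0.11 for all genes tested, −0.14 for OVA+PM2.5 against OVA (−0.23 for all genes) and −0.29 for OVA+PM2.5 against Naive (−0.33 for all genes). The 3 comparisons share groups of libraries, so they are not independent of one another, and fold changes on this log2(value + pseudocount) scale understate the change of low genes. Rescaling FPKM to a common sum moved the medians of all genes to −0.44, −0.05 and −0.49, and median-ratio scaling moved them to −0.01, −0.01 and −0.03. Relative to such shifts the signs of small estimates are arbitrary, and those of Hsph1, Hspa5, Hsp90aa1 and Hspd1 turned in at least 1 comparison under one of these scalings.

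Whether every library of one group lay apart from every library of another was counted for members and for all genes. In OVA against Naive 0 members were apart and higher (11.2% of all genes) and 1, Hspb1, apart and lower (22.4%). For OVA+PM2.5 against OVA 1 was higher, Hspe1 (6.86%), and 0 lower (20.1%), and for OVA+PM2.5 against Naive 0 were higher (6.83%) and 2, Hspa1b and Dnajb1, lower (33.2%). Each of these separations has an exact permutation p of 0.1, the smallest possible with 3 against 3 (two-sided). By library, Naive replicate 3 held the highest value of 4 members, OVA replicate 3 of 3, OVA+PM2.5 replicate 3 of 2 and OVA+PM2.5 replicate 2 of 1. How often each library was highest or lowest over all genes was not counted, here or for the lists below.

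**Figure D2:**
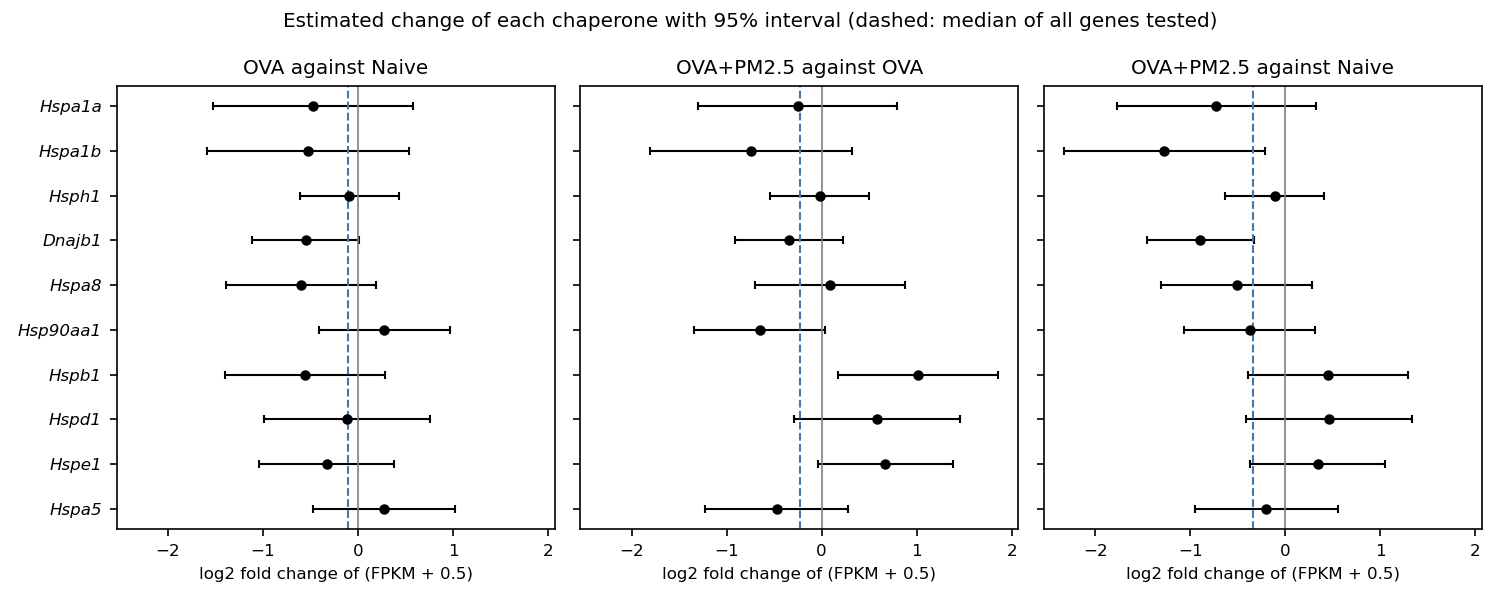
Log2 fold change of FPKM + 0.5 (x axis) for each chaperone (y axis) in the 3 comparisons, with 95% intervals from limma; the dashed line is the median of all genes tested. Most intervals span 0; those of Hspb1 in OVA+PM2.5 against OVA and of Hspa1b and Dnajb1 in OVA+PM2.5 against Naive do not, with adjusted p of 0.131, 0.0982 and 0.0567.

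The stress-inducible HSP70 genes Hspa1a and Hspa1b were low, and their highest library was a Naive one. Hspa1a measured 1.35, 1.42 and 4.32 FPKM in the 3 Naive libraries in replicate order, 0.843, 1.03 and 2.64 in OVA and, in OVA+PM2.5, 1.66, 1.09 and 0.610. Hspa1b measured 3.65, 3.96 and 9.37 FPKM in the 3 Naive libraries in replicate order, 2.97, 2.54 and 5.27 in OVA and, in OVA+PM2.5, 2.34, 3.04 and 0.792. Naive replicate 3 was highest and OVA+PM2.5 replicate 3 lowest for both genes, and within OVA replicate 3 was highest. In Naive replicate 3 the counting interval of Hspa1a (202 fragments, exact Poisson 95% interval 3.74 to 4.96 FPKM) lay above those of Naive replicate 1 (62 fragments, 1.04 to 1.73) and replicate 2 (62 fragments, 1.09 to 1.82), so that library differed from the other 2 of its group by more than counting error. Such intervals cover counting error only.

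Hspa1b was 2.06 ± 1.15 FPKM in OVA+PM2.5 and 5.66 ± 3.22 in Naive (SD, n = 3), and every OVA+PM2.5 library lay below every Naive one. The log2 fold change was −1.27 (SE 0.47, adjusted p 0.0982), with a 95% interval of −2.33 to −0.21. Against OVA it was −0.74 (SE 0.47, adjusted p 0.329) and in OVA against Naive −0.53 (SE 0.47, adjusted p 0.696), with overlapping groups. Hspa1a gave −0.47 (adjusted p 0.732) in OVA against Naive, −0.25 (adjusted p 0.750) in OVA+PM2.5 against OVA and −0.72 (adjusted p 0.285) in OVA+PM2.5 against Naive, with overlap in each. The estimates for this pair rested in part on their highest and lowest libraries. The Hspa1b change in OVA+PM2.5 against Naive was −0.84 without OVA+PM2.5 replicate 3, which held 27 Hspa1b fragments against 92 and 129 in replicates 1 and 2, and −0.87 without Naive replicate 3. Without that Naive library the OVA against Naive estimates were −0.02 for Hspa1a and −0.13 for Hspa1b.

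How reads were divided between this pair is uncertain, as it is for reads shared with the processed pseudogenes of Hspa8, Hspd1 and Hspe1. In the GENCODE reference transcripts the coding sequences of Hspa1a and Hspa1b (1923 and 1926 bases) were 99.43% identical, with 8 mismatched bases, while whole transcripts were 84.38% identical, and the counting tool is not given in the sources used here. Their summed level depends less on that division. It was 5.0, 5.38 and 13.7 FPKM in Naive replicates 1 to 3, 3.82, 3.57 and 7.92 in OVA and, in OVA+PM2.5, 4.0, 4.13 and 1.40. The sum averaged 8.02 ± 4.91 in Naive, 5.10 ± 2.44 in OVA and 3.18 ± 1.54 in OVA+PM2.5 (SD, n = 3), and every OVA+PM2.5 sum was below every Naive sum, while OVA overlapped both other groups. The ratio of Hspa1b to Hspa1a ran from 1.30 in OVA+PM2.5 replicate 3 to 3.53 in OVA replicate 1, and groups did not separate (two-sided exact permutation p 0.3 to 1, where 0.1 is the smallest possible with 3 against 3).

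Dnajb1, the J-domain protein that stimulates cytosolic HSP70 and is a classic HSF1 target, had the smallest adjusted p of the 10 genes. Dnajb1 measured 11.1, 9.56 and 11.3 FPKM in the 3 Naive libraries in replicate order, 5.14, 6.57 and 10.5 in OVA and, in OVA+PM2.5, 5.27, 5.36 and 5.88. All OVA+PM2.5 libraries and OVA replicates 1 and 2 lay below the lowest Naive library, and OVA replicate 3 lay within the Naive range. Means were 10.7 ± 0.963 in Naive, 7.40 ± 2.76 in OVA and 5.50 ± 0.327 in OVA+PM2.5 (SD, n = 3). OVA+PM2.5 against Naive gave a log2 fold change of −0.89 (SE 0.25, adjusted p 0.0567), with an interval of −1.46 to −0.33, and 3 of 3 OVA+PM2.5 libraries were below all Naive ones. Summed alveolar type 2 markers were also lower in every OVA+PM2.5 library (147 to 8388 FPKM) than in every Naive one (13140.5 to 23474). Gene by gene this held for 5 of 7 of them, and not for Abca3 and Slc34a2. The part of tissue content in the Dnajb1 difference was not tested. OVA against Naive gave −0.55 (SE 0.25, adjusted p 0.449) and OVA+PM2.5 against OVA −0.34 (SE 0.25, adjusted p 0.401).

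Hsph1, an HSP110 nucleotide exchange factor of HSP70, had the estimates closest to 0. Hsph1 measured 2.22, 2.53 and 2.92 FPKM in the 3 Naive libraries in replicate order, 2.18, 1.86 and 3.18 in OVA and, in OVA+PM2.5, 2.03, 3.02 and 2.02. Every pair of groups overlapped, and OVA replicate 3 was the highest library. The 3 estimates were −0.09, −0.02 and −0.11 for OVA against Naive, OVA+PM2.5 against OVA and OVA+PM2.5 against Naive, with intervals of −0.61 to 0.43, −0.54 to 0.50 and −0.63 to 0.41 (adjusted p 0.908, 0.968 and 0.748).

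Groups also overlapped for Hspa8, the constitutive HSP70 that also uncoats clathrin vesicles. Hspa8 measured 64.9, 58.1 and 96.7 FPKM in the 3 Naive libraries in replicate order, 33.3, 46.9 and 66.2 in OVA and, in OVA+PM2.5, 69.7, 47.5 and 37.7. Naive replicate 3 was highest and OVA replicate 1 lowest. The changes were −0.60 (SE 0.35, adjusted p 0.540) in OVA against Naive, 0.09 (SE 0.35, adjusted p 0.889) in OVA+PM2.5 against OVA and −0.51 (SE 0.35, adjusted p 0.314) in OVA+PM2.5 against Naive. The FPKM of Hspa8 was 10.3 to 18.5 times that of Hspa1b in Naive and OVA libraries. In OVA+PM2.5 replicates 1 to 3 it was 29.7, 15.6 and 47.6 times. The ratio was chosen after the values had been seen (two-sided exact permutation p 0.2 for OVA+PM2.5 against each other group). Its size depends on the length used for each gene, and only its differences between libraries do not. The same holds for the other ratios between genes.

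Hsp90aa1, the inducible cytosolic HSP90, was steady in Naive lungs and variable in the treated groups. Hsp90aa1 measured 48.9, 49.8 and 51.9 FPKM in the 3 Naive libraries in replicate order, 49.3, 60.7 and 75.4 in OVA and, in OVA+PM2.5, 30.8, 60.3 and 30.9. OVA replicates 2 and 3 were above all Naive libraries, while OVA+PM2.5 replicates 1 and 3 were below all Naive and OVA libraries and replicate 2 was not. Those low libraries were the ones with few alveolar type 2 transcripts (summed FPKM 147 and 691.6), and the part of tissue content in the difference was not tested. OVA+PM2.5 against OVA gave −0.65 (SE 0.30, adjusted p 0.206), OVA against Naive 0.28 (SE 0.30, adjusted p 0.763) and OVA+PM2.5 against Naive −0.37 (SE 0.30, adjusted p 0.395). The constitutive paralogue Hsp90ab1 stood at 262, 182 and 129 FPKM in OVA+PM2.5 against 153 ± 14.5 in OVA, so the ratio of Hsp90aa1 to Hsp90ab1, another ratio chosen after seeing the values, was 0.117, 0.331 and 0.240 in OVA+PM2.5 and 0.292, 0.405 and 0.539 in OVA. These ratios overlapped (two-sided exact permutation p 0.2).

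Calls among the cytosolic genes depended on OVA+PM2.5 replicate 2, the library rich in heart transcripts. Without it, Hsp90aa1 was called lower in OVA+PM2.5 against OVA (−0.97, adjusted p 0.0172), where 25.4% of all genes were then called. In OVA+PM2.5 against Naive, Dnajb1 (−0.88, 0.0460), Hsp90aa1 (−0.69, 0.0482) and Hspa1b (−1.57, 0.0426) were then called lower, 3 of 10 members against 32.7% of all genes. The members' share was near that of all genes, and both of the remaining OVA+PM2.5 libraries were those poor in alveolar type 2 markers.

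Other cytosolic chaperones and co-chaperones, a list of 28 that excludes the 10 members, showed 1 call. The J-domain protein Dnaja1, a co-chaperone of Hspa8, fell in OVA+PM2.5 against Naive. It stood at 13.1, 13.2 and 14.3 FPKM in Naive, 6.14, 7.66 and 8.35 in OVA and, in OVA+PM2.5, 3.31, 5.78 and 4.95, so that the 3 groups did not overlap and each was lower than the one before. Its lowest libraries, OVA+PM2.5 replicates 1 and 3, were those poor in alveolar type 2 markers, and the part of tissue content was not tested. The log2 fold change was −1.47 (SE 0.23, adjusted p 0.0264) against Naive and −0.63 (SE 0.23, adjusted p 0.129) against OVA. The call against Naive, 1 of 28 beside 7.12% of all genes, was lost in the 2-group fit (adjusted p 0.111) and without any single Naive or OVA library (0.0502 to 0.127). In OVA against Naive it was −0.84 (SE 0.23, adjusted p 0.269), and the 2-group fit called it there (adjusted p 0.0304) together with a higher Hspa4l (0.95, 0.0375), an HSP110-type exchange factor at 8.19 ± 1.92 FPKM in OVA and 3.96 ± 0.714 in Naive. That 2-group fit thus called 1 of the 28 higher and 1 lower, a share near the 6.89% of all genes it called in either direction. In OVA+PM2.5 against OVA 0 of 28 passed, and the smallest p were those of Hspa2, an HSP70 best known from testis (−1.58, adjusted p 0.0821), and Ptges3, the HSP90 co-chaperone p23 (−0.68, adjusted p 0.112). The list's median was −0.13, −0.13 and −0.26 in the 3 comparisons, close to the −0.11, −0.23 and −0.33 of all genes.

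The cytosolic chaperonin and the heat shock factors did not pass either. Of 8 subunits of TRiC, which folds actin and tubulin, 0 were called in each comparison, and medians were −0.11, −0.03 and −0.17. The smallest p were those of Cct8 (−0.23, adjusted p 0.688) and Tcp1 (0.21, 0.747) in OVA against Naive, Tcp1 (0.17, 0.645) and Cct7 (−0.16, 0.660) in OVA+PM2.5 against OVA, and Tcp1 (0.39, 0.243) and Cct7 (−0.34, 0.279) in OVA+PM2.5 against Naive. Hsf1 itself was at 1.55, 1.30 and 1.39 FPKM in Naive, 1.29, 1.01 and 0.877 in OVA and, in OVA+PM2.5, 1.64, 1.18 and 0.843, and its change after OVA was −0.30 (adjusted p 0.605). Hsbp1, a small protein that binds HSF1 and is described as its inhibitor, was lower in every treated library than in Naive, at 38.1 ± 2.02 FPKM in Naive, 26.0 ± 3.40 in OVA and 22.9 ± 5.21 in OVA+PM2.5, with changes of −0.55 (adjusted p 0.416), −0.20 (adjusted p 0.593) and −0.75 (adjusted p 0.0669) in OVA against Naive, OVA+PM2.5 against OVA and OVA+PM2.5 against Naive. Hsf4 gave −0.64 (adjusted p 0.192) in OVA+PM2.5 against OVA and −0.59 (adjusted p 0.176) against Naive.

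Hspb1 (HSP27), a small heat shock protein bound to actin filaments and abundant in muscle, had the largest estimate between OVA+PM2.5 and OVA. Hspb1 measured 38.0, 41.3 and 55.3 FPKM in the 3 Naive libraries in replicate order, 25.3, 31.7 and 33.1 in OVA and, in OVA+PM2.5, 80.9, 84.8 and 32.8. Every OVA library lay below every Naive one. OVA+PM2.5 replicates 1 and 2 lay above all Naive and OVA libraries, and replicate 3 lay in the OVA range. The log2 fold change was 1.02 (SE 0.37, adjusted p 0.131) in OVA+PM2.5 against OVA, with an interval of 0.17 to 1.86. It was −0.56 (SE 0.37, adjusted p 0.584) in OVA against Naive and 0.46 (SE 0.37, adjusted p 0.397) in OVA+PM2.5 against Naive. Without replicate 3 of OVA+PM2.5, Hspb1 was called higher in OVA+PM2.5 against OVA (1.46, adjusted p 0.0344), where 1.55% of all genes were called. The library left out was the OVA+PM2.5 one with low Hspb1. Both that remained were rich in muscle or heart transcripts, and the part of these tissues was not tested.

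The other small heat shock proteins were highest in the libraries with muscle and heart transcripts. Of 6 listed, all had their highest value in OVA+PM2.5 replicate 1 (3 genes) or replicate 2 (3 genes), the libraries where skeletal muscle markers summed to 14176 and heart markers to 5154. Hspb6, a muscle protein, was at 120.3, 8.56 and 4.99 FPKM in OVA+PM2.5 replicates 1, 2 and 3 and at 2.04 ± 1.17 in Naive and 2.19 ± 0.360 in OVA. Hspb7, a cardiac and muscle protein, was at 102, 180.4 and 9.62 and at 8.39 ± 7.37 in Naive and 9.04 ± 6.28 in OVA. Hspb8, which works with Bag3 in muscle, was at 93.2, 44.2 and 28.0 and at 17.3 ± 2.94 in Naive and 14.5 ± 3.41 in OVA. Cryab, the alpha-B crystallin of lens, heart and muscle, was at 47.6, 84.4 and 7.57, with 33.1, 36.4 and 44.2 in Naive and 10.8, 32.5 and 20.8 in OVA.

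Of these 6, 5 were tested (Hspb3 was too low), and 0 passed in each comparison, with medians of −0.22, 2.25 and 2.03. Expression in OVA+PM2.5 alone was enough for a gene to be tested, so these medians support nothing. The smallest p were those of Cryab (−0.93, adjusted p 0.674) and Hspb8 (−0.26, 0.848) in OVA against Naive. In OVA+PM2.5 against OVA they were Hspb8 (1.74, 0.0839) and Hspb2 (2.25, 0.111), and against Naive Hspb8 (1.48, 0.0563) and Hspb6 (2.94, 0.0807). Bag3, the co-chaperone partner of Hspb8, followed the same libraries at 60.8, 37.8 and 17.1 FPKM in OVA+PM2.5, against 23.0 ± 2.53 in OVA. The part of muscle and heart tissue in the Hspb1 difference was not tested; OVA+PM2.5 replicate 3, where 8 of 9 skeletal muscle markers were also above every Naive and OVA library but summed to 258.6, had an Hspb1 level within the OVA range.

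**Figure D3:**
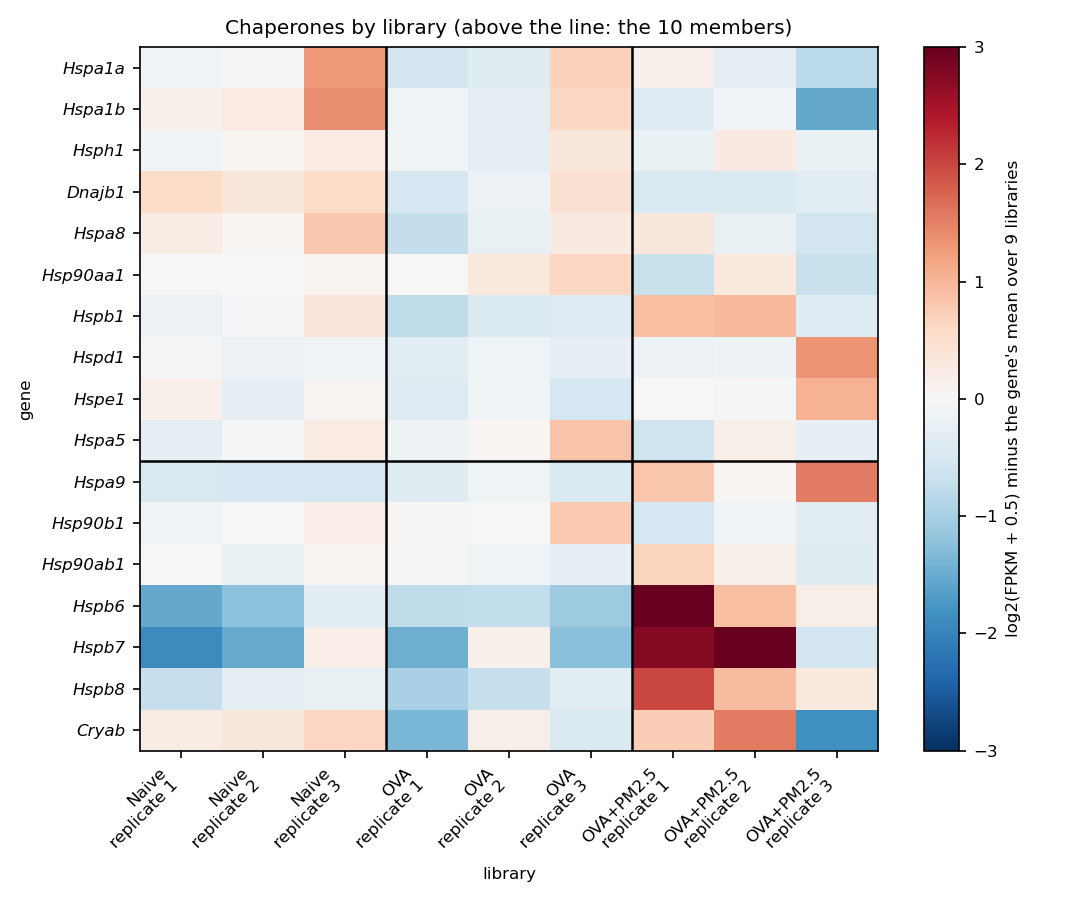
Log2(FPKM + 0.5) minus the gene's mean over 9 libraries (colour, capped at 3 on either side) for the 10 chaperones above the line and 7 related genes below it, by library. Hspb6, Hspb7 and Hspb8 stand out in OVA+PM2.5 replicate 1, Hspb7 and Cryab in replicate 2, and Hspd1, Hspe1 and Hspa9 in replicate 3.

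The mitochondrial chaperonin genes Hspd1 (HSP60) and Hspe1 (HSP10) were highest in the same library, and of the pair only Hspd1 was flat in the 8 others. Hspd1 measured 47.7, 43.4 and 44.6 FPKM in the 3 Naive libraries in replicate order, 39.3, 44.6 and 41.0 in OVA and, in OVA+PM2.5, 43.6, 44.3 and 126. Hspe1 measured 30.3, 23.0 and 28.5 FPKM in the 3 Naive libraries in replicate order, 20.6, 25.8 and 18.6 in OVA and, in OVA+PM2.5, 27.6, 26.3 and 56.1. For Hspd1, 8 of the 9 values lay between 39.3 and 47.7, and for Hspe1 8 lay between 18.6 and 30.3. OVA+PM2.5 replicate 3 was the exception for both genes. In that library brown fat markers summed to 2881, against at most 225.8 in the others, and erythrocyte markers to 14637, against at most 5503, and the part of these cells in the result was not tested.

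Hspe1 was the 1 member whose OVA+PM2.5 libraries all lay above the OVA ones, by a narrow margin: the lowest OVA+PM2.5 value was 26.3 and the highest OVA value 25.8 FPKM. Its change was 0.67 (SE 0.31, adjusted p 0.206), and the estimate was 0.32 without OVA+PM2.5 replicate 3. Hspd1 gave 0.58 (SE 0.39, adjusted p 0.352) in OVA+PM2.5 against OVA and 0.08 without that library. Against Naive the estimates were 0.34 (adjusted p 0.452) for Hspe1 and 0.46 (adjusted p 0.407) for Hspd1, and both were close to 0 without it (−0.01 and −0.04). In OVA against Naive they were −0.33 (adjusted p 0.719) and −0.12 (adjusted p 0.932).

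Hspd1 and Hspe1, which share the promoter stretch shown above, differed in proportion from library to library. The ratio of Hspd1 to Hspe1 ran from 1.56 to 2.24 over the 9 libraries and from 1.56 to 2.21 without OVA+PM2.5 replicate 3. Mean ratios were 1.68 ± 0.184 in Naive, 1.95 ± 0.243 in OVA and 1.84 ± 0.357 in OVA+PM2.5 (SD, n = 3), and they overlapped (two-sided exact permutation p 0.2, 0.6 and 0.5). As a description over 9 libraries that share groups, the correlation of their log2 levels was 0.92, and it was 0.90 over the 6 Naive and OVA libraries.

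The mitochondrial HSP70 Hspa9 (mortalin), which hands imported proteins to the chaperonin, had larger estimates than Hspd1. It stood at 37.4, 36.1 and 35.8 FPKM in Naive, 40.4, 47.2 and 37.8 in OVA and, in OVA+PM2.5, 93.0, 53.6 and 152, with a change of 1.12 (SE 0.35, adjusted p 0.104) against OVA and 1.31 (SE 0.35, adjusted p 0.0534) against Naive. The ratio of Hspd1 to Hspa9 was 1.24 ± 0.0363 in Naive, 1.00 ± 0.0741 in OVA and 0.708 ± 0.207 in OVA+PM2.5 (SD, n = 3), with no overlap between any 2 groups. The two-sided exact permutation p was 0.1 in each, the smallest possible, for a ratio chosen after the values had been seen. Both OVA+PM2.5 replicate 1, rich in skeletal muscle transcripts, and replicate 3, rich in brown fat transcripts, had high Hspa9, whereas of these Hspd1 was high in replicate 3 alone, and the part of these tissues was not tested.

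Among 12 other mitochondrial chaperones and proteases, Hspa9 included, 0 passed in each comparison. Medians were −0.06, 0.62 and 0.44, beside −0.11, −0.23 and −0.33 for all genes. The highest of 9 libraries was OVA+PM2.5 replicate 3, rich in brown fat and erythrocyte transcripts, for 9 of the 12. Among them was the HSP90 Trap1, at 20.4, 19.7 and 37.4 FPKM in OVA+PM2.5 and 16.4 ± 1.25 in OVA. The exchange factor Grpel1 (10.5, 10.9 and 29.3, against 7.74 ± 1.26) and the J-domain protein Dnaja3 (10.9, 7.38 and 21.5, against 5.66 ± 0.172) were others. The same count was not made over all genes, and the part of tissue content was not tested. The smallest p were those of Clpx (0.38, adjusted p 0.596) and Hscb (−0.34, 0.669) in OVA against Naive and of Grpel2 (−0.80, 0.0849) and the protease subunit Afg3l2 (1.09, 0.0998) in OVA+PM2.5 against OVA. Against Naive they were those of Hspa9 and Grpel2 (−0.71, 0.0599). Grpel2, the second mitochondrial exchange factor, was lower in all OVA+PM2.5 libraries (2.95, 4.03 and 3.33 FPKM) than in all OVA ones (5.85, 6.11 and 7.05), whereas Grpel1 was higher in all OVA+PM2.5 libraries (10.5, 10.9 and 29.3) than in all OVA ones (6.38, 7.97 and 8.87).

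**Figure D4:**
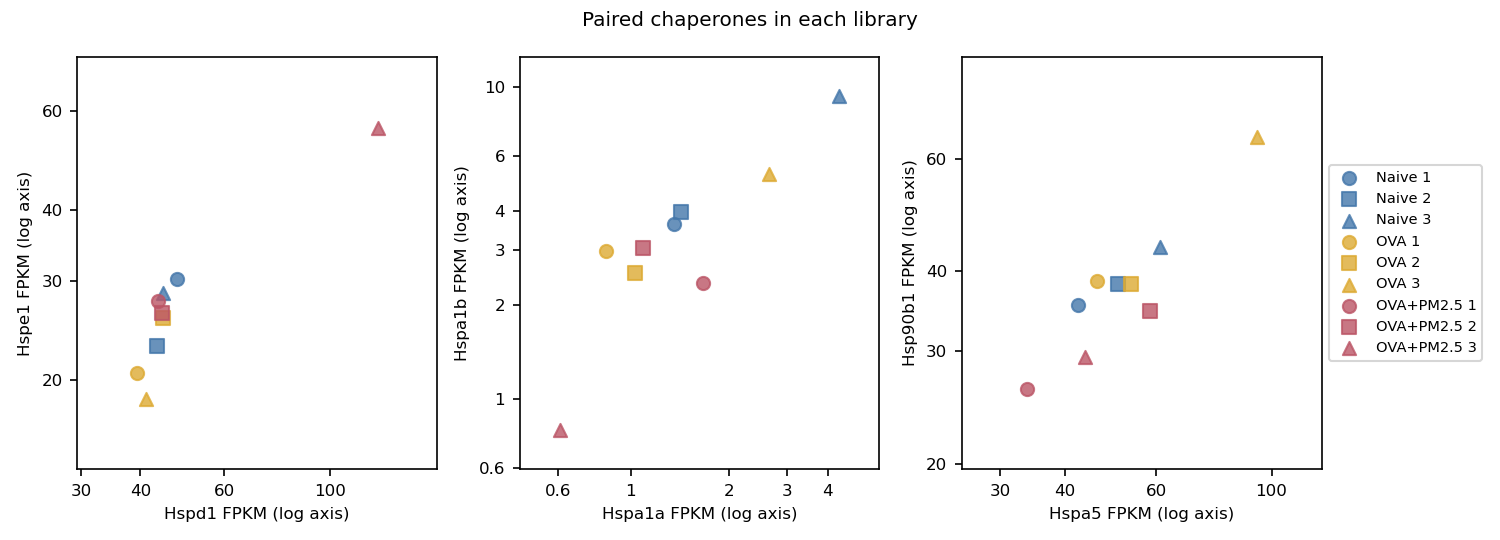
Levels of 3 pairs of chaperones in each library (both axes FPKM, log scaled; colour is the group and marker shape the replicate). Hspd1 is tightly grouped except for OVA+PM2.5 replicate 3, where Hspe1, which varies more among the others, is highest too. Hspa1a and Hspa1b run from that library up to Naive replicate 3, and Hspa5 and Hsp90b1 rise together to OVA replicate 3.

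Hspa5 (BiP), the HSP70 of the ER, overlapped between all groups. Hspa5 measured 42.3, 50.6 and 61.0 FPKM in the 3 Naive libraries in replicate order, 46.1, 53.6 and 93.7 in OVA and, in OVA+PM2.5, 33.8, 58.4 and 43.6. OVA replicate 3 was highest, and OVA+PM2.5 replicate 1 lowest. The changes were 0.27 (SE 0.33, adjusted p 0.789) in OVA against Naive, −0.47 (SE 0.33, adjusted p 0.378) in OVA+PM2.5 against OVA and −0.20 (SE 0.33, adjusted p 0.684) in OVA+PM2.5 against Naive. The ER HSP90 Hsp90b1 (GRP94) ran alongside, at 35.4, 38.2 and 43.6 FPKM in Naive, 38.7, 38.1 and 64.9 in OVA and, in OVA+PM2.5, 26.1, 34.7 and 29.4, and the ratio of Hspa5 to Hsp90b1 stayed between 1.19 and 1.68. In OVA replicate 3, where both peaked, plasma cell markers summed to 1710 and neutrophil markers to 2331, each the highest of the 9 libraries, and their part in these levels was not tested. In OVA replicate 1, where Hspa5 was at 46.1 FPKM, plasma cell markers summed to 1109.

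Of 25 other ER chaperones and unfolded protein response genes, 0 rose and 2 fell in OVA+PM2.5 against Naive, where 7.12% of all genes were called, and 0 were called in both other comparisons. Atf4, the transcription factor of the integrated stress response, fell from 64.0 ± 3.12 to 26.9 ± 5.77 FPKM (SD, n = 3; log2 fold change −1.26, SE 0.22, adjusted p 0.0293). It stood at 66.3, 60.5 and 65.2 in Naive, 46.1, 49.6 and 42.9 in OVA and, in OVA+PM2.5, 22.0, 33.3 and 25.3, with no overlap between groups. Serpinh1 (HSP47), the collagen chaperone, fell from 28.4 ± 1.51 to 10.8 ± 6.39 (−1.49, SE 0.36, adjusted p 0.0451). Both calls were lost in the 2-group fit (adjusted p 0.111 for Atf4 and 0.122 for Serpinh1). They were also lost without any single Naive or OVA library or without OVA+PM2.5 replicate 1 (0.0510 to 0.136 for Atf4 and 0.0695 to 0.146 for Serpinh1), and that of Serpinh1 without OVA+PM2.5 replicate 3 (0.0825). Serpinh1 was also low in OVA (10.1, 7.39 and 10.3 FPKM; −1.58, adjusted p 0.206) and was called there by the 2-group fit (adjusted p 0.0104), as was a higher Derl3, an ER degradation gene that also marks plasma cells (1.95, 0.0377). These calls, 1 of 25 lower and 1 higher, stood near the 6.89% of all genes that the 2-group fit called in OVA against Naive. The smallest p in OVA+PM2.5 against OVA were those of Atf4 (−0.79, 0.0898) and the disulfide isomerase Pdia3 (−0.96, 0.0929).

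In the ER list the libraries of highest and lowest value were counted. The highest of 9 libraries was OVA replicate 3 for 18 of 25 genes, and the lowest was OVA+PM2.5 replicate 1 for 14 and replicate 3 for 7. The same count was not made over all genes, so it cannot be said whether this is particular to the list. Medians of the list were 0.10 in OVA against Naive, −0.53 in OVA+PM2.5 against OVA, where 24 of 25 estimates and 68.7% of those of all genes were negative, and −0.43 in OVA+PM2.5 against Naive, beside −0.11, −0.23 and −0.33 for all genes. The 2 lowest libraries were those poor in alveolar type 2, club and endothelial markers, and the part of tissue content was not tested. Manf, a secreted ER stress protein chosen after its values had been seen, was at 2.76, 9.47 and 8.83 FPKM in OVA+PM2.5 against 9.33, 11.2 and 17.7 in OVA.

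Immediate early genes, which like the inducible HSP70 genes are switched on within minutes of stimulation or tissue handling, were followed in the same fits. Of 13 tested of 14 listed, 1 fell in OVA against Naive, Nr4a1, from 23.2 ± 3.09 to 2.57 ± 0.427 FPKM (−2.95, SE 0.27, adjusted p 0.0236), and the 2-group fit called 6 lower, Fos, Jun, Egr1, Ier2, Dusp1 and Nr4a1. In that comparison the 9-library fit called 0.0154% of all genes and the 2-group fit 6.89%, in either direction. The 9-library call of Nr4a1 was lost with no filter on low values (adjusted p 0.0633) and without any single Naive library or OVA replicate 2 or 3 (0.0777 to 0.256). In OVA+PM2.5 against Naive 8 fell, the AP-1 subunits Fos (−2.06, adjusted p 0.0293) and Jun (−1.86, adjusted p 0.0436), Egr1 (−2.08, adjusted p 0.0264), Ier2 (−1.94, adjusted p 0.0425), the phosphatase Dusp1 (−2.31, adjusted p 0.0340), Nr4a1 (−2.58, adjusted p 0.0156), Btg2 (−2.01, adjusted p 0.0293) and the mRNA-decay factor Zfp36 (−1.35, adjusted p 0.0333). These 8 of 13 stood beside 7.12% of all genes, and 0 of the 8 were called in the 2-group fit (smallest adjusted p 0.11) or without any single Naive library (smallest 0.0784). Fos, Jun, Ier2, Dusp1, Btg2 and Zfp36 were lowest in OVA+PM2.5 replicate 1 or 3, the libraries poor in alveolar type 2 markers. Egr1 and Nr4a1 were lowest in an OVA library, and the part of tissue content was not tested. Of the 13, 0 passed in OVA+PM2.5 against OVA, where the smallest p were those of Btg2 (−1.17, adjusted p 0.0950) and Zfp36 (−0.66, adjusted p 0.142). The highest library was Naive replicate 1 for 9 of 14, whereas Hspa1a and Hspa1b were highest in Naive replicate 3. Fos, for example, was at 7.63, 6.75 and 7.15 FPKM in the Naive libraries, where Hspa1a was at 1.35, 1.42 and 4.32.

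The genes whose levels over the 9 libraries were most like the inducible chaperones were looked for among 11260 other genes with a mean FPKM of at least 1. The profile was the mean z-score of Hspa1a, Hspa1b, Hsph1 and Dnajb1, which was highest in Naive replicate 3 (1.5) and OVA replicate 3 (1.07) and lowest in OVA+PM2.5 replicate 3 (−1.19). The 6 genes of highest Pearson correlation, over 9 libraries, were Il1b (0.953), Xdh (0.947), Fcrls (0.933), Rnf216 (0.928), Ccl4 (0.926) and Ppp4r1 (0.925). Il1b encodes the cytokine interleukin-1 beta and stood at 2.88, 2.89 and 5.84 FPKM in Naive, 1.69, 2.12 and 5.64 in OVA and, in OVA+PM2.5, 1.44, 2.29 and 1.63. Xdh encodes xanthine dehydrogenase and ran from 5.57 FPKM in OVA+PM2.5 replicate 3 to 17.4 in Naive replicate 3. The chemokine gene Ccl4 ran from 0.374 to 8.75 FPKM between the same libraries. Such a ranking of many genes over 9 libraries is a description and carries no test.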

How the data were processed

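Poly(A) mRNA of mouse lung was extracted with Trizol and made into libraries with the NEBNext Ultra kit, per the labels' protocols. FPKM per gene were computed and deposited by the authors against GRCm39, per the submitters' processing notes; which aligner and counting tool they used is not given in the sources used here. Of 21884 genes, 13132 carried a symbol in the table, 8725 were named from a reference by Ensembl identifier and 27 had none. Each of the 9 columns was tied to its library by the name in its header.

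FPKM were tested as log2(FPKM + 0.5) with limma (version 3.58.1, under R 4.3.3; linear models with moderated variances and an intensity trend) in 1 fit of 9 libraries (6 residual and 2.80 median prior degrees of freedom), on 12982 genes at an FPKM of at least 0.5 in at least 3 libraries. P-values were adjusted by Benjamini-Hochberg over all genes within each comparison (threshold 0.05). Single values were compared by two-sided exact permutation tests. Fragment numbers were recovered from the steps between low FPKM values, up to a common factor per gene. They came out whole, to a tolerance of 0.001, for all 17298 genes detected in 2 or more libraries. For a gene detected in few libraries a whole solution is found almost whatever its values, so this is no check on such genes. The recovery gave depth (relative 0.787 to 1.02), Poisson intervals and a voom fit. Alternatives were a pseudocount of 0.1 or 1, no filter, 2-group fits, weights per group, a replicate block, common-sum and median-ratio scaling, voom, and leaving out each library. The limma and fragment steps were tested on simulated data. The limma simulation gave all groups the same spread and covered OVA against Naive only, so it cannot speak for groups of unequal spread. Python 3.11.15 with pandas 2.3.3 and scipy 1.17.1 served for the rest.

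The text names all 10 chaperones and, of each other list, members past the threshold or else the 2 of smallest p. The members and lists were chosen with earlier results of these data known. Genes and ratios said to be chosen after seeing values, and those given for their level in single libraries, fall outside that rule. Promoter sequences are from RefSeq (GRCm38.p6) and Hspa1a and Hspa1b transcripts from GENCODE, and were searched or aligned with own code.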

Additional observations from a re-analysis of the deposited data

How the results depend on the processing

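With 3 libraries a group, few changes can be told from the spread between libraries, and counting error limits only Hspa1a and Hspa1b (22 to 414 fragments a library); the other 8 genes had at least 418. The count of called chaperones stayed at 0 in each comparison with a pseudocount of 0.1 or 1, no filter on low values, 2-group fits, weights per group, common-sum and median-ratio scaling and voom. Leaving out single libraries moved it between 0 and 1 in OVA+PM2.5 against OVA and between 0 and 3 in OVA+PM2.5 against Naive, and left it at 0 in OVA against Naive. The 1 call without OVA+PM2.5 replicate 2 was Hsp90aa1, the 1 call without OVA+PM2.5 replicate 3 was Hspb1, and the 3 calls without OVA+PM2.5 replicate 2 were Dnajb1, Hsp90aa1 and Hspa1b; the cause was not tested.

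The replicate numbers were not treated as pairs: the correlation between deviations of libraries with the same number ran from −0.171 to 0.278 and exceeded 0.1 in 3 of 9 pairs. The fit with the replicate number as a block called 0 of 10 members in each comparison. Over all genes it called 0, 0 and 50 in OVA against Naive, OVA+PM2.5 against OVA and OVA+PM2.5 against Naive, in place of 2, 28 and 924. Of the genes named from other lists, Nr4a1 lost its call in OVA against Naive (adjusted p 0.143), and in OVA+PM2.5 against Naive 2 of 11 (Nr4a1 and Egr1) kept theirs.

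Counts over all genes ran, in those 3 comparisons, from 0 to 895, 0 to 103 and 0 to 1645 over the other settings and from 0 to 54, 0 to 3295 and 0 to 4248 over the libraries left out; the cause was not tested. Of the 11 named genes of other lists called in OVA+PM2.5 against Naive, 0 were called in the 2-group fit, 4 with voom, 6 with no filter on low values, 8 with median-ratio scaling, 9 with weights per group or a pseudocount of 0.1, and all 11 with a pseudocount of 1 or a common sum. Leaving out a library left 0 for each Naive library, 1 or 2 for each OVA library and 3, 11 and 7 for OVA+PM2.5 replicates 1, 2 and 3.

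Of 270 recomputed fold changes under other settings, 255 kept their direction and side of the threshold and 15 changed sign; the largest reversed main estimate anywhere was 0.46, and the cause was not tested. In OVA against Naive the common sum turned Hsp90aa1 to −0.12 and Hspa5 to −0.12, median-ratio scaling turned Hsph1 to 0.0079 and Hspd1 to 0.0034, and voom turned them to 0.0091 and 0.0033. Hsph1 in OVA+PM2.5 against OVA became 0.15 with the common sum, 0.21 with median-ratio scaling and 0.26 with voom. Both median-ratio scaling and voom turned 3 estimates in OVA+PM2.5 against Naive, giving, in that order, 0.21 and 0.27 for Hsph1, 0.016 and 0.0072 for Hsp90aa1 and 0.19 and 0.19 for Hspa5. Over the libraries left out in turn, 255 of 270 kept direction and side, 5 passed the threshold and 10 changed sign. In OVA against Naive the range was −0.28 to 0.046 for Hsph1 (sign turned without OVA replicate 2) and −0.029 to 0.48 for Hspa5 (without OVA replicate 3). For OVA+PM2.5 against OVA it was −0.49 to 0.12 for Hspa1a (without OVA replicate 3), −0.18 to 0.17 for Hsph1 (without OVA replicate 3 or OVA+PM2.5 replicate 1 or 3) and −0.16 to 0.33 for Hspa8 (without OVA replicate 1 or OVA+PM2.5 replicate 1). For OVA+PM2.5 against Naive it was −0.040 to 0.72 for Hspd1 and −0.0069 to 0.53 for Hspe1 (both without OVA+PM2.5 replicate 3).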
